A study of Mus musculus with 56 samples.

Results

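The genes that build and break down the triglyceride store of the heart were followed around the clock in mice fed by day or by night. They are 10 genes of the 22864 listed, taken by symbol: Lipe, Pnpla2, Abhd5 and Mgll of lipolysis, G0s2, an inhibitor of lipolysis, Plin2 and Plin5 of the droplet coat, and Dgat1, Dgat2 and Gpam of triglyceride synthesis. The question was how lipolysis and esterification genes compare between the regimens. All 10 genes passed the filter on low values.

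Heart muscle burns fatty acids, and those it does not burn at once are esterified stepwise onto glycerol and stored as triglyceride in lipid droplets. Lipases then release the fatty acids again, and proteins that coat the droplet, activate a lipase or block it decide how much is let out. In adipose tissue this turnover follows feeding and fasting through insulin and catecholamines.

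Hearts came from adult female C57BL/6J mice, an inbred strain, of 9 weeks, housed in 12 h of light and 12 h of dark. For 7 days the animals had food in the day only (daytime-restricted feeding, DRF) or in the night only (nighttime-restricted feeding, NRF, the usual feeding time of mice), after 7 days of normal chow at all hours. Hearts were collected every 4 h from zeitgeber time (ZT, hours after lights on) 0 to 24, with 4 libraries in each of the 14 groups of regimen and ZT, 56 in all. Because whole tissue was sequenced, a change in the number of cells of a type and a change in RNA per cell cannot be told apart.

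Values are TPM, read counts divided by transcript length and scaled to the same total in every library, recomputed from whole reads recovered from the deposited values. Libraries held 29.3 to 53.0 M recovered reads, and the 10 genes had between 462 (Dgat1, the lowest) and 26346 (Dgat2, the highest) reads per library. The defining cardiomyocyte markers were all above 1 TPM. White adipocyte markers were present as well: 6 of 9 averaged at least 1 TPM and none was at 0 on average, while their summed level ran from 7.81 to 312 TPM under DRF and from 19.5 to 257 TPM under NRF. Summed markers of the atria ran from 95.0 to 5481 TPM under DRF and from 129 to 4307 TPM under NRF.

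A pair of libraries went against their labels. Over 1086 other genes with a different rhythm between the regimens, the library labelled DRF ZT4 replicate 1 correlated best with the NRF ZT8 group (r = 0.82, against -0.20 with its own group), and the library labelled NRF ZT8 replicate 1 correlated best with DRF ZT4 (r = 0.72, against -0.14). Both were kept under their labels, and the counts of calls, the phase shifts, the calls that changed, the score and the correlations among the 10 genes are also given without them.

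The windows of 250 bases before the RefSeq transcription start of the 3 genes whose rhythms were inverted (below) are shown to let a reader compare their upstream sequence (build GRCm38.p6, printed 5′ to 3′ on the strand of the gene). The Lipe window is chr7:25390113-25390362 (minus strand, inside the annotated gene, at the inner of its RefSeq starts, 11 of its bases in an annotated exon), the Pnpla2 window chr7:141454938-141455187 (plus strand, upstream of the annotated gene) and the Gpam window chr19:55127239-55127488 (minus strand, upstream of the annotated gene). Capitals mark a match to the forkhead (FOXO) motif GTAAACA on either strand.
Lipe: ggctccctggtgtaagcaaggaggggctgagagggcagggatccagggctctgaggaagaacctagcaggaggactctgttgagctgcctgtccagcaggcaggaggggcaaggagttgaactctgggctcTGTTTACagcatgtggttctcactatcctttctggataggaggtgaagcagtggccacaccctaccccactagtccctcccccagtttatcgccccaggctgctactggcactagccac
Pnpla2: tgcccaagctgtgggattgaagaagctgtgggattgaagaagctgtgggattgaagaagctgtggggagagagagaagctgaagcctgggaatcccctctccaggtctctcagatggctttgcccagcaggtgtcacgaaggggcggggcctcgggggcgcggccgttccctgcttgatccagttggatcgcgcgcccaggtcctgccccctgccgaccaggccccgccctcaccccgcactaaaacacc
Gpam: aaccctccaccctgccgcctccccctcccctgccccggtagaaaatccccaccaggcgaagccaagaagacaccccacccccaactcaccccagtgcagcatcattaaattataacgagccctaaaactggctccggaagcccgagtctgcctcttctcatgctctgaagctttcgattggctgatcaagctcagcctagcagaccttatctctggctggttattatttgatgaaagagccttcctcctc
In all, 12 such windows were held for 8 of the genes. The FOXO letters occurred in 2 of the 12 windows, the Lipe window above (119 bases before the start) and a Mgll window (241 bases before), against 3.17% of 32851 promoter windows. The E-box letters CACGTG, the motif bound by clock activators, occurred in the other Lipe window (155 bases before its start) and the same Mgll window (44 bases before), against 6.02% of all windows. No match was found in the 12 windows for the D-box (TTATGTAA), CRE (TGACGTCA), the sterol response element (TCACNCCAC), the PPAR element (PPRE), the glucocorticoid element (GRE) or the TATA box (TATAAA), which occurred in 0.819%, 1.55%, 1.05%, 0.0335%, 0.00913% and 12.4% of all windows. A match is a description of letters and not a binding site.

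In GRCm38 (mm10, GENCODE annotation) Lipe lies at chr7:25379527-25398710, Pnpla2 at chr7:141455198-141460743, Abhd5 at chr9:122351608-122381524, Mgll at chr6:88724412-88828360 and G0s2 at chr1:193272161-193273217. Plin2 lies at chr4:86648386-86670060, Plin5 at chr17:56111601-56117596, Dgat1 at chr15:76502015-76511953, Dgat2 at chr7:99153658-99182719 and Gpam at chr19:55067268-55127238. Except for Gpam, whose length is given below, levels are over the annotated exons.

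The levels of the genes covered a wide range. Averaged over the 56 libraries, Dgat2 (278 TPM, 187 to 438) and Pnpla2 (244 TPM, 154 to 332) were highest, followed by G0s2 (160 TPM, 91.6 to 322), Plin5 (126 TPM, 80.6 to 176), Mgll (112 TPM, 76.5 to 154) and Gpam (92.1 TPM, 53.3 to 152). Plin2 (39.3 TPM, 30.0 to 49.5), Lipe (21.5 TPM, 13.6 to 35.6), Abhd5 (16.4 TPM, 14.2 to 19.3) and Dgat1 (11.5 TPM, 9.59 to 13.8) were lower. Neighbours in this order overlapped in range except Gpam with Plin2 and Abhd5 with Dgat1. The level of Gpam rests on a length of 3832 bases that was inferred from its read steps (6664 bases in the annotation), which sets its scale but not its differences between groups.

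**Figure D1:**
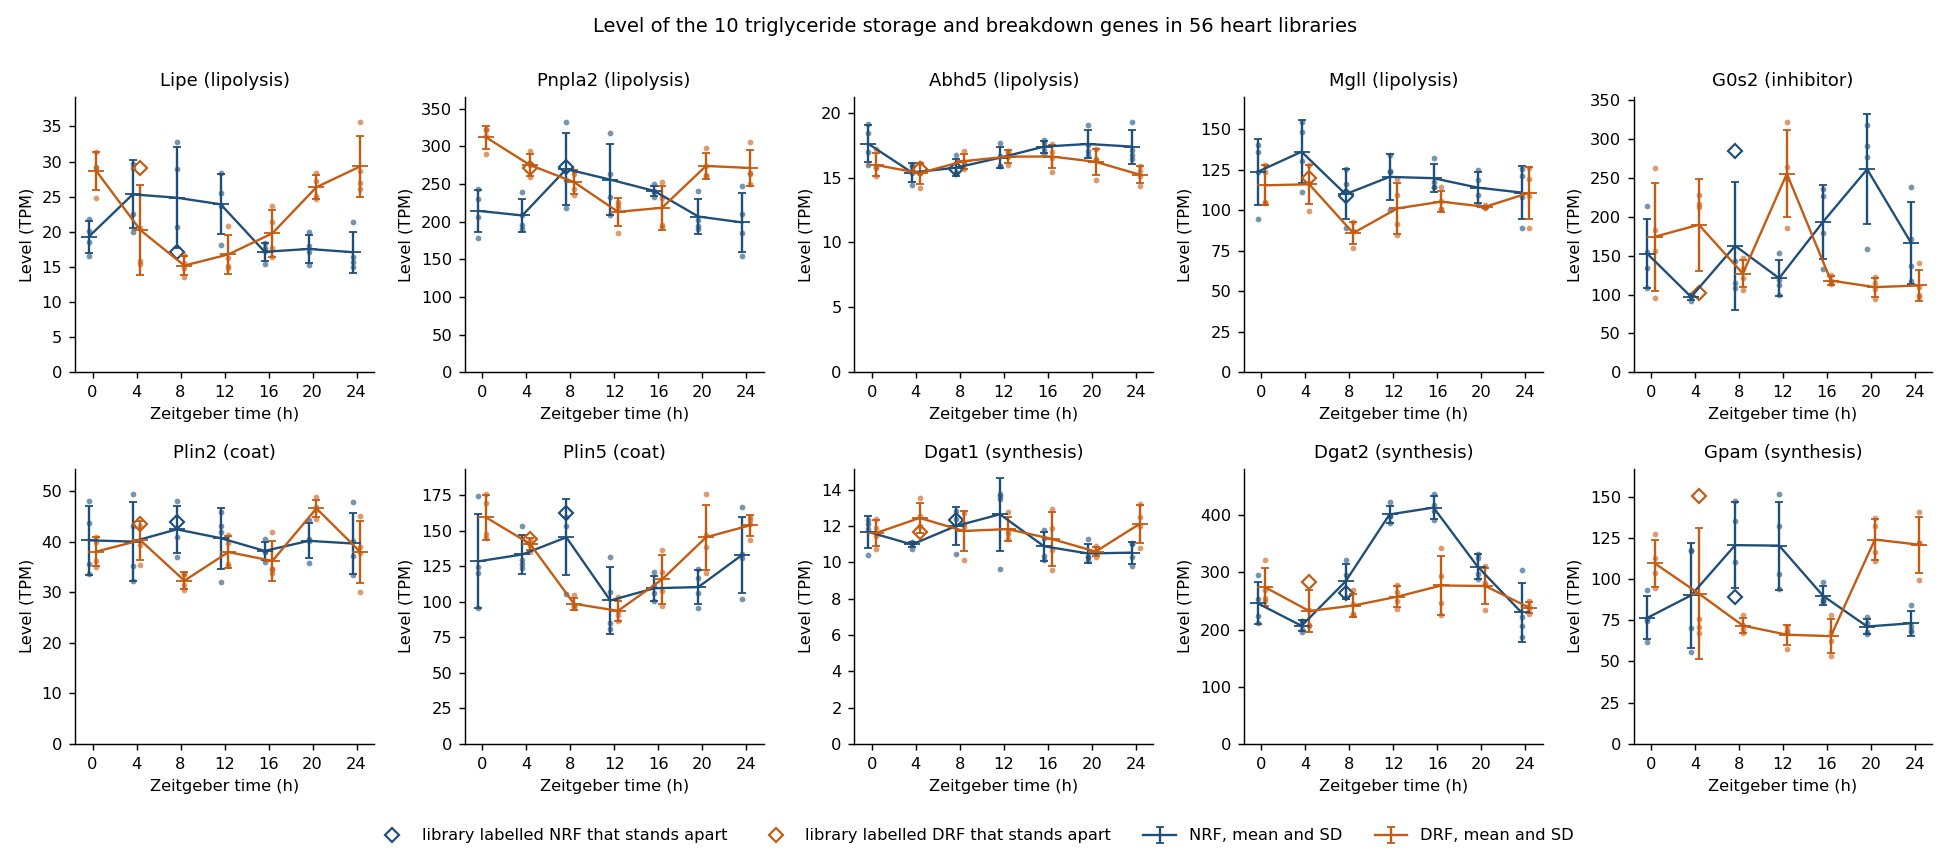
Level in TPM (vertical axis, from 0) of each of the 10 genes against zeitgeber time in hours (horizontal axis), with blue for NRF and orange for DRF. Points are single libraries, lines join group means with bars of 1 SD (n = 4), and open diamonds are the 2 libraries that went against their labels. Lipe, Pnpla2 and Gpam of DRF hearts lie high around ZT20 to ZT24 where those of NRF hearts lie low, and Dgat2 of NRF hearts lies above that of DRF hearts at ZT12 and ZT16.

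The first comparison asked whether each transcript kept a 24-h rhythm under each regimen and whether the rhythm differed. Under NRF 7 of the 10 genes were rhythmic, where 37.2% of the 13893 genes tested were. Under DRF 4 were rhythmic (Lipe, Pnpla2, Plin5 and Gpam), where 32.2% of all genes were, and all 4 were rhythmic under NRF too, against 17.5% of all genes. A difference in rhythm between the regimens was found for 7 genes (Lipe, Pnpla2, Abhd5, G0s2, Plin5, Dgat2 and Gpam), against 27.5% of all genes. Of the 4 genes rhythmic under both regimens, Lipe, Pnpla2 and Gpam had peak times more than 8 h apart, called phase inverted. Such a shift together with a rhythm under both regimens was found for 3.1% of all genes. These were 430 of the 2434 genes rhythmic under both. The shift of Plin5 was smaller (below). These calls are limma F tests of a cosine and a sine term at an adjusted p under 0.05. Without the 2 libraries that went against their labels the counts were 7 under NRF (42.8% of all genes), 6 under DRF (30% of all genes), with Plin2 (adjusted p = 0.0434) and Dgat2 (adjusted p = 0.0465) added, and 7 for the difference (30.5% of all genes). After median-of-ratios scaling 8 genes were rhythmic under DRF (32.8% of all genes), with Abhd5, Mgll, Plin2 and Dgat2 added. When all libraries of 1 replicate number were left out, 5 to 6 genes were rhythmic under NRF, 4 to 5 under DRF, and 5 to 6 differed in rhythm, against 20.2% to 37.8%, 16.5% to 25.7% and 13.3% to 23.6% of all genes.

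**Figure D2:**
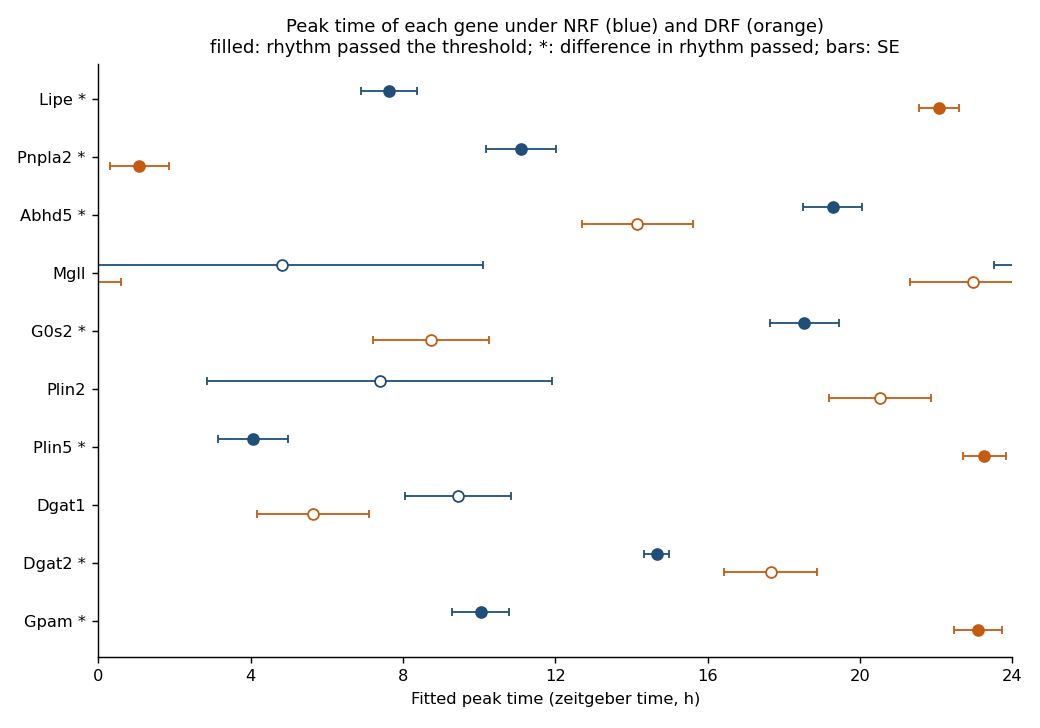
Fitted peak time on the zeitgeber scale in hours (horizontal axis) of each gene under NRF (blue) and DRF (orange), with bars of 1 SE. Filled points passed the threshold for a rhythm, open points did not, and an asterisk marks the 7 genes whose rhythm differed; the orange points of Lipe, Pnpla2 and Gpam lie close to lights on and the blue points in the light phase.

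Among the lipolysis genes, both droplet lipases turned their daily course around. Lipe encodes hormone-sensitive lipase, which acts chiefly on diacylglycerol. Under DRF its 4 libraries held 31.4, 24.9, 29.2 and 29.1 TPM at ZT0, 15.6, 14.9, 16.7 and 13.6 TPM at ZT8, and 35.6, 28.6, 26.1 and 26.9 TPM at ZT24. Under NRF they held 21.8, 18.6, 20.1 and 16.6 TPM at ZT0, 28.3, 23.6, 25.5 and 18.2 TPM at ZT12, and 16.4, 21.3, 15.6 and 15.0 TPM at ZT24. The DRF libraries were thus high at both lights-on times and lay above every NRF library there. The DRF group means ranged from 15.2 ± 1.31 TPM at ZT8 to 29.3 ± 4.34 TPM at ZT24 (SD, n = 4), a 1.93-fold range without overlap, while the NRF means ranged 1.48-fold with overlap. The fitted peak lay at ZT7.64 under NRF and at ZT22.1 under DRF, an advance of 9.55 h (SE 0.903), with rhythm amplitudes of 0.31 and 0.46 on the log2 scale (SE 0.06 each). The difference in rhythm had an adjusted p of 2.85e-08, and the advance was 9.93 h without the 2 libraries that went against their labels. Exons of Lipe overlap those of 4732471J01Rik on the opposite strand by 918 bases, and whether reads were counted by strand is not given in the sources used here.

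The libraries that went against their labels lie at DRF ZT4 and NRF ZT8. The DRF ZT4 libraries held 29.1 (replicate 1, labelled DRF), 20.6, 15.9 and 15.4 TPM, and the NRF ZT8 libraries 17.1 (replicate 1, labelled NRF), 28.9, 20.7 and 32.7 TPM. Without replicate 1 the SD of Lipe went from 6.38 to 2.87 TPM at DRF ZT4 and from 7.20 to 6.16 TPM at NRF ZT8. The DRF minus NRF difference in Lipe was -0.34 at ZT4 and -0.64 at ZT8 on the log2 scale with all libraries, neither called (adjusted p = 0.396 and 0.058), and -0.52 and -0.79 without the pair (adjusted p = 0.0375 and 0.00249).

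Pnpla2 encodes adipose triglyceride lipase, which takes the first fatty acid off triglyceride and is the main triglyceride lipase of heart. Its DRF libraries at ZT0 held 321, 313, 289 and 323 TPM against 230, 179, 243 and 205 TPM under NRF, so the lowest DRF library exceeded the highest NRF library. At ZT12 the order of the means was the other way, with 185, 226, 218 and 222 TPM under DRF and 318, 233, 264 and 209 TPM under NRF, but these libraries overlapped and the difference did not pass the test (log2 difference -0.25, adjusted p = 0.182). The peak moved from ZT11.1 (SE 0.926) under NRF to ZT1.08 (SE 0.785) under DRF, an advance of 10.02 h (SE 1.21, adjusted p of the difference in rhythm 2.66e-06). The NRF rhythm of Pnpla2 was lost without all libraries of replicate 1 (adjusted p = 0.0688). The amplitudes were 0.20 and 0.23 (SE 0.04 each), and the shift of Pnpla2 was 10.1 h without the 2 libraries that went against their labels.

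Abhd5, the coactivator of adipose triglyceride lipase, had the narrowest course of the lipolysis genes under either regimen: its group means lay between 15.2 and 16.6 TPM under DRF and between 15.4 and 17.6 TPM under NRF. Its rhythm passed the threshold under NRF (peak ZT19.3, amplitude 0.10, adjusted p = 0.00802) and not under DRF (adjusted p = 0.0729), and the difference in rhythm had an adjusted p of 0.0195. That difference was lost without ZT8, ZT12 or ZT24 (adjusted p = 0.0961, 0.0653 and 0.0919), and without all libraries of replicate 1, 2 or 4 (adjusted p = 0.268, 0.0959 and 0.0679). The NRF rhythm of Abhd5 was lost without those of replicate 1 (adjusted p = 0.0937). After median-of-ratios scaling the DRF rhythm of Abhd5 passed as well (adjusted p = 0.000255), as it did without DRF ZT0 replicate 3 (0.0295) or DRF ZT16 replicate 4 (0.0400). The single call at the same ZT was at ZT24, with 14.4, 15.1, 15.5 and 15.9 TPM under DRF and 16.7, 19.3, 16.4 and 17.1 TPM under NRF (log2 difference -0.18, SE 0.05, adjusted p = 0.0302). That call ended when any of 4 libraries of these groups was left out (DRF replicate 1, 2 or 3, or NRF replicate 2, adjusted p up to 0.167), without all libraries of replicate 1, 2 or 3 (adjusted p = 0.0837 to 0.233), and with the atrial marker level as a covariate (adjusted p = 0.0659). Mgll, monoglyceride lipase, which frees the last fatty acid, did not pass the test of rhythm under either regimen (adjusted p = 0.865 under NRF and 0.0751 under DRF). Its DRF rhythm passed under 7 of 75 other settings, among them median-of-ratios scaling (adjusted p = 0.049) and leaving out DRF ZT12 replicate 2 or 4 or DRF ZT24 replicate 3 (adjusted p = 0.0235 to 0.0496). Its group means ran from 85.9 ± 6.75 TPM at ZT8 to 116 ± 11.9 TPM at ZT4 under DRF, without overlap, and 1.24-fold with overlap under NRF (SD, n = 4). Exons of Mgll overlap an antisense gene (Gm26588) by 167 bases, and those of Abhd5 overlap A730085K08Rik by 950 bases.

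The inhibitor had the widest swing. G0s2, the small protein that binds and blocks adipose triglyceride lipase, ranged more over the day than the other 9 genes, 2.69-fold under NRF and 2.33-fold under DRF between its highest and lowest group means. Under NRF it was highest at ZT20, with 292, 319, 277 and 158 TPM, and lowest at ZT4, with 91.6, 98.4, 98.2 and 99.9 TPM. Under DRF it was highest at ZT12, with 322, 249, 186 and 265 TPM, and lowest at ZT20, with 107, 94.2, 123 and 114 TPM. The highest mean thus fell 8 h after lights off under NRF and at lights off under DRF. Under DRF the means at ZT0 (175 ± 69.3 TPM) and ZT4 (190 ± 59.2 TPM) were also above that at ZT8 (127 ± 17.4 TPM). At ZT20 every NRF library exceeded every DRF library. The NRF rhythm passed the test (peak ZT18.5, adjusted p = 0.00787), the DRF rhythm did not (peak ZT8.73, adjusted p = 0.135), and the difference in rhythm had an adjusted p of 0.00405.

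At ZT4 the DRF libraries of G0s2 held 102 (replicate 1, labelled DRF), 213, 229 and 216 TPM against 91.6 to 99.9 TPM under NRF. At ZT8 the NRF libraries held 285 (replicate 1, labelled NRF), 108, 115 and 143 TPM against 107 to 148 TPM under DRF. The library labelled DRF ZT4 replicate 1 lay near the NRF libraries of its ZT, and that labelled NRF ZT8 replicate 1 lay above all other libraries of either regimen at its ZT. The log2 difference at ZT4 was 0.89 with all libraries (adjusted p = 0.115) and 1.17 without the pair (adjusted p = 0.00215), and without the pair the adjusted p of the difference in G0s2 rhythm was 1.09e-04 and the shift 10.6 h (9.81 h with all libraries). Without ZT20 the difference in rhythm of G0s2 did not pass the threshold (adjusted p = 0.158), and the NRF rhythm was lost without ZT4 (adjusted p = 0.0937) or ZT20 (adjusted p = 0.140). Leaving out all libraries of replicate 2 or 3 ended both the difference (adjusted p = 0.056 and 0.0717) and the NRF rhythm of G0s2 (adjusted p = 0.133 and 0.0514).

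Of the droplet coat genes, Plin5 passed the tests of rhythm and Plin2 passed none of them before another scaling or the leaving out of libraries. Plin5, a coat protein of tissues that burn fat, binds droplets to mitochondria and holds Abhd5 away from the lipase. Its DRF libraries held 176, 148, 145 and 169 TPM at ZT0 and 86.5, 93.8, 103 and 91.0 TPM at ZT12, which did not overlap. Its NRF libraries held 124, 95.3, 174 and 120 TPM at ZT0 and 132, 84.9, 107 and 80.6 TPM at ZT12, which did. The peak moved from ZT4.06 (SE 0.921) under NRF to ZT23.3 (SE 0.571) under DRF, an advance of 4.79 h (SE 1.08, adjusted p of the difference in rhythm 0.000586), and of 4.38 h without the 2 libraries that went against their labels. The 95% interval of this shift (DRF minus NRF) was -6.97 to -2.62 h, which includes shifts under 4 h, the limit used here for a locked phase. The size of the shift of Plin5 was 2.69 h without ZT8, 3.61 h without all libraries of replicate 1, 6.03 h without those of replicate 3 and 6.47 h without ZT12. The NRF rhythm of Plin5 was close to the threshold (adjusted p = 0.0354) and was lost without NRF ZT4 replicate 3, ZT12 replicate 2, ZT16 replicate 2 or ZT20 replicate 4 (adjusted p up to 0.0615), as it was without ZT4, ZT12, ZT16, ZT20 or ZT24 (adjusted p = 0.0546 to 0.0863), without all libraries of replicate 2, 3 or 4 (adjusted p = 0.104 to 0.113) and with no filter on low values (adjusted p = 0.0511), and without ZT8 the difference in rhythm was lost (adjusted p = 0.0724).

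Plin2, the common droplet coat protein whose level tends to follow stored lipid, stayed between group means of 38.1 and 42.4 TPM under NRF. Under DRF its means ran from 32.3 ± 1.64 TPM at ZT8 to 46.6 ± 1.75 TPM at ZT20 (SD, n = 4), with 48.7, 46.8, 46.2 and 44.5 TPM at ZT20 above the 33.6, 31.5, 30.3 and 33.7 TPM at ZT8. The cosine fit of Plin2 did not pass the threshold (adjusted p = 0.065) but passed under 10 of 75 other settings, among them median-of-ratios scaling with all libraries (adjusted p = 0.0201) and leaving out the 2 libraries that went against their labels (adjusted p = 0.0434). The test of a difference in rhythm did not pass (adjusted p = 0.132) and passed under 1 other setting, without ZT4 (adjusted p = 0.0383).

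The synthesis genes each went their own way. Gpam, the mitochondrial acyltransferase that attaches the first fatty acid to glycerol phosphate, was phase inverted like the lipases. Its DRF libraries held 132, 111, 116 and 137 TPM at ZT20 and 68.5, 70.8, 57.5 and 68.0 TPM at ZT12. Its NRF libraries held 73.5, 67.9, 76.8 and 66.5 TPM at ZT20 and 132, 94.1, 152 and 103 TPM at ZT12. The regimens did not overlap at either time, and their order was opposite. The peak advanced by 10.9 h (SE 0.975) from ZT10.04 to ZT23.1, the amplitudes were 0.39 and 0.46 (SE 0.07 each), and the difference in rhythm had an adjusted p of 1.96e-08. The library labelled DRF ZT4 replicate 1 held 150 TPM of Gpam where the other 3 of its group held 67.2, 76.0 and 71.0 TPM, and the library labelled NRF ZT8 replicate 1 held 89.0 TPM where the other 3 held 135, 110 and 147 TPM. Without the pair the advance of Gpam was 11.3 h.

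Dgat2, one of the enzymes that add the last fatty acid to make triglyceride, moved its fitted peak less than Gpam and lost most of its swing. Under NRF its libraries went from 201, 215, 196 and 215 TPM at ZT4 to 387, 398, 423 and 398 TPM at ZT12 and 417, 438, 407 and 391 TPM at ZT16. Under DRF they held 283, 207, 233 and 206 TPM at ZT4, 250, 266, 237 and 277 TPM at ZT12, and 342, 294, 246 and 226 TPM at ZT16. All NRF libraries at ZT12 and ZT16 lay above all DRF libraries of any time. The amplitude was 0.51 (SE 0.04) under NRF and 0.13 (SE 0.05) under DRF, the peak went from ZT14.7 to ZT17.7, a delay of 3.00 h (SE 1.27), and the difference in rhythm had an adjusted p of 8.46e-07. The shift of Dgat2 was 2.94 h without the 2 libraries that went against their labels. The DRF rhythm of Dgat2 missed the threshold (adjusted p = 0.0941) but passed under 4 of 75 other settings, which were median-of-ratios scaling (adjusted p = 0.00665) and leaving out those 2 libraries (adjusted p = 0.0465), DRF ZT4 replicate 1 alone (adjusted p = 0.0465) or DRF ZT16 replicate 4 (adjusted p = 0.0399). Dgat1, the other enzyme of this last step, did not pass the test of rhythm under either regimen (adjusted p = 0.0945 under NRF and 0.138 under DRF) but passed under NRF and under DRF in 3 of 75 other settings each (adjusted p = 0.0228 to 0.0465 and 0.0306 to 0.0385), with group means of 10.5 to 12.6 TPM under NRF and 10.6 to 12.4 TPM under DRF.

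The second comparison set the regimens side by side at the same ZT. Of 70 pairs of gene and ZT, 14 were called. At ZT0, Lipe (1.49-fold) and Pnpla2 (1.46-fold) were higher under DRF, 2 of 10 genes where 11.5% of all genes were called. At ZT12, G0s2 was 2.11-fold higher under DRF and Gpam (1.82-fold) and Dgat2 (1.56-fold) were higher under NRF, 3 genes against 7.64%. At ZT16 Dgat2 was 1.49-fold higher under NRF, 1 gene against 6.87%. At ZT20, Gpam (1.74-fold), Lipe (1.5-fold) and Pnpla2 (1.32-fold) were higher under DRF and G0s2 was 2.39-fold higher under NRF, 4 genes against 14.8%. At ZT24, Lipe (1.72-fold), Gpam (1.65-fold) and Pnpla2 (1.36-fold) were higher under DRF and Abhd5 lower, 4 genes against 8.83%. In limma at ZT4 and ZT8 none was called, where 0.446% and 0.353% of all genes were. At an unadjusted p under 0.05 there were 4 and 5 of the genes. The share of all genes at that threshold is not given, here or below, so such counts cannot be weighed against it.

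The adjusted p values of these calls ran from 0.000566 for Dgat2 at ZT12 to 0.0302 for Abhd5 at ZT24. Some were lost without single libraries or without all libraries of 1 replicate number. The call of Lipe at ZT0 was lost without DRF ZT0 replicate 1 or NRF ZT0 replicate 4 (adjusted p = 0.0682 and 0.0588), and that of Pnpla2 at ZT20 without NRF ZT20 replicate 1 (0.0515). Without all libraries of a number, the call of Lipe was lost at ZT0 (replicate 3 or 4, adjusted p = 0.105 and 0.0804) and at ZT20 (replicate 2 or 3, adjusted p = 0.0811 and 0.0571), and that of Pnpla2 at ZT20 (replicate 1, 2 or 4, adjusted p = 0.0635 to 0.0899) and ZT24 (replicate 3, adjusted p = 0.139). In the same way the call of G0s2 was lost at ZT12 (replicate 2 or 3, adjusted p = 0.0567 and 0.0745), and that of Gpam at ZT12 (replicate 3, adjusted p = 0.211) and ZT24 (replicate 3 or 4, adjusted p = 0.0619 and 0.0513). At ZT24 the call of Pnpla2 was lost without DRF ZT24 replicate 1 or NRF ZT24 replicate 3 (adjusted p = 0.0533 and 0.0833) and that of Gpam without DRF ZT24 replicate 1 (0.0623). Without the 2 libraries that went against their labels 21 pairs were called, against 14 with all libraries. They included Lipe and G0s2 at ZT4 (2 genes against 3.45% of all genes) and Lipe and Gpam at ZT8 (2 genes against 3.6%), with Gpam lower under DRF at ZT8 (log2 difference -0.85, adjusted p = 0.00364). At ZT0 Gpam was added (0.52, adjusted p = 0.0208, 3 genes against 12.5%), at ZT12 Lipe (-0.48, adjusted p = 0.0201, 4 genes against 9.39%) and at ZT16 G0s2 (-0.68, adjusted p = 0.0484, 2 genes against 8.01%). At ZT20 and ZT24 4 genes were called as before, against 16.7% and 10.5% of all genes.

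**Figure D3:**
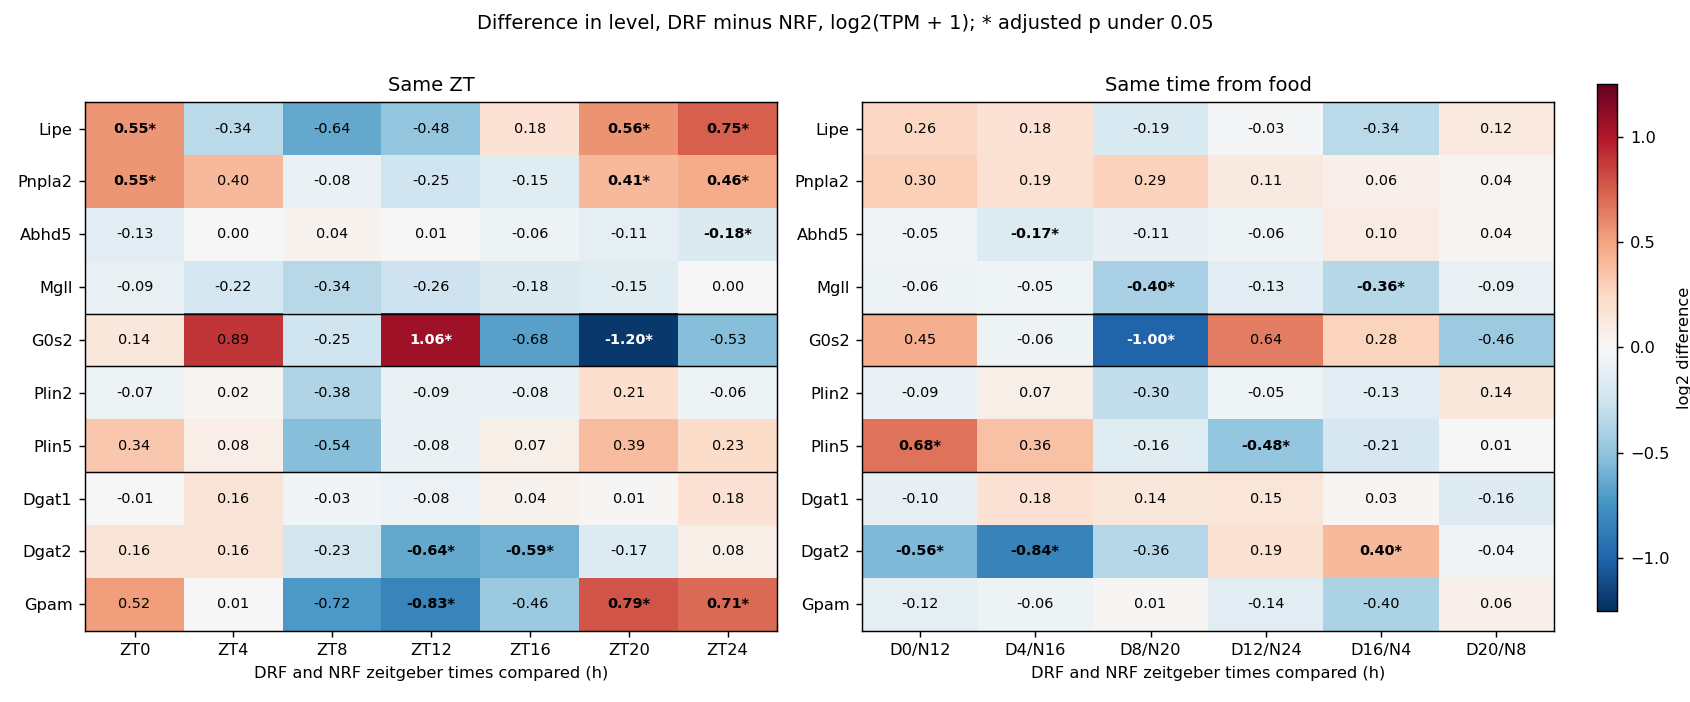
Difference in level, DRF minus NRF on the log2(TPM + 1) scale, of each gene (rows, grouped as lipolysis, inhibitor, coat and synthesis) at the same ZT (left) and at the same time from food (right, D and N giving the DRF and NRF ZT in hours). Red is higher under DRF, and an asterisk marks an adjusted p under 0.05; Lipe, Pnpla2 and Gpam carry asterisks on the left and none on the right.

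The third comparison matched the hearts by time from food in place of clock time, with DRF ZT0 set against NRF ZT12, and so on in steps of 4 h. The hours of food are not given in the sources used here, and the matching takes the feeding windows as the 12 h of light and the 12 h of dark. It shares libraries with the comparison at the same ZT, so its values are given for themselves. Of 60 pairs 9 were called, and none of them was Lipe, Pnpla2 or Gpam. For Lipe the log2 differences lay between -0.34 and 0.26 (SE 0.16), for Gpam between -0.40 and 0.06 (SE 0.19) and for Pnpla2 between 0.04 and 0.30 (SE 0.12), with Pnpla2 higher under DRF in all 6. Under other settings 3 of these differences passed. Pnpla2 for DRF ZT0 with NRF ZT12 passed after median-of-ratios scaling (0.36, adjusted p = 0.0349) and without NRF ZT12 replicate 1 (0.41, adjusted p = 0.0337). Gpam for DRF ZT16 with NRF ZT4 passed without NRF ZT4 replicate 1 (-0.60, adjusted p = 0.0135) and without all libraries of replicate 1 (-0.69, adjusted p = 0.00268). Lipe for the same pair passed with the adipocyte marker covariate (-0.42, adjusted p = 0.0367).

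The calls fell on Dgat2, Plin5, Mgll, G0s2 and Abhd5. For DRF ZT0 with NRF ZT12, Dgat2 was 1.47-fold higher under NRF and Plin5 1.58-fold higher under DRF (2 genes against 6.21% of all genes). The Plin5 call was lost without all libraries of replicate 4 (adjusted p = 0.0768). For DRF ZT4 with NRF ZT16 Dgat2 was 1.78-fold higher under NRF (adjusted p = 1.4e-06) and Abhd5 1.13-fold higher (adjusted p = 0.0468), 2 genes against 6.4%. The Abhd5 call was lost under 31 of 68 other settings. They were 22 of the 56 fits that left out a library (adjusted p up to 0.182), each of the 4 that left out a replicate number (adjusted p = 0.104 to 0.235), and the fits without the 2 libraries that went against their labels (adjusted p = 0.0571), with no filter on low values (0.0649), with an untrended robust variance prior (0.0539), with the replicate block (0.0521) and with the atrial covariate (0.0541). For DRF ZT8 with NRF ZT20 G0s2 was 2.06-fold and Mgll 1.33-fold higher under NRF (2 genes against 5.49%), and both calls were lost without any of DRF ZT8 replicate 2 or NRF ZT20 replicate 1, 2 or 3, that of Mgll also without DRF ZT8 replicate 1 or 3 (adjusted p up to 0.068 for G0s2 and 0.129 for Mgll). Both were lost without all libraries of replicate 2 or 3 (adjusted p up to 0.192 for G0s2 and 0.278 for Mgll), and that of Mgll also without those of replicate 1 (0.205) and with no filter on low values (0.0525). Dgat2 passed there under 13 of 68 other settings. Among them was the fit without the 2 libraries that went against their labels (log2 difference -0.36, adjusted p = 0.038). So 9 of 60 pairs were called without these 2 libraries too.

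For DRF ZT12 with NRF ZT24 Plin5 was 1.42-fold higher under NRF (1 gene against 5.18%), with overlapping libraries. That Plin5 call was lost without any of 6 libraries (DRF ZT12 replicate 1, 2 or 4, or NRF ZT24 replicate 2, 3 or 4; adjusted p up to 0.168), without all libraries of replicate 2 or 4 (adjusted p = 0.316 and 0.111) and with the atrial marker level as a covariate (adjusted p = 0.161). For DRF ZT16 with NRF ZT4 Mgll was 1.29-fold higher under NRF and Dgat2 1.34-fold higher under DRF (2 genes against 22.7%). The Mgll call was lost without DRF ZT16 replicate 1 or 4 or NRF ZT4 replicate 1 or 4 (adjusted p up to 0.137), without all libraries of replicate 1, 3 or 4 (adjusted p = 0.054 to 0.143), after median-of-ratios scaling (adjusted p = 0.108) and with the atrial covariate (adjusted p = 0.0848), and the Dgat2 call without DRF ZT16 replicate 1 (adjusted p = 0.0615) or all libraries of replicate 1 (adjusted p = 0.0996). For DRF ZT20 with NRF ZT8 limma called 0 of the genes, and 0 had an unadjusted p under 0.05, where 24.1% of all genes were called.

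As a check on the clock, ZT24 was set against ZT0 within each regimen. In limma 0 of 20 pairs were called (0.425% of all genes under DRF and 0.0576% under NRF), and 1 (G0s2 under DRF) had an unadjusted p under 0.05. The 4 DRF libraries of G0s2 held 95.8, 263, 184 and 156 TPM at ZT0 and 96.5, 99.9, 110 and 141 TPM at ZT24, so the ZT0 libraries were spread more widely than those of ZT24.

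The mean level over the day differed for 3 genes, against 26% of all genes tested. Pnpla2 was higher under DRF (log2 difference 0.13, SE 0.044, adjusted p = 0.0214), where 1.67% of all genes were called higher. Mgll (-0.19, SE 0.045, adjusted p = 0.00168) and Dgat2 (-0.23, SE 0.043, adjusted p = 0.000169) were lower, where 24.3% of all genes were called lower. After median-of-ratios scaling 13% of all genes were called, 767 higher and 1043 lower, against 232 and 3375 here, and these 3 genes kept their calls (Dgat1, 0.09, adjusted p = 0.0346, was added). In TPM, Pnpla2 averaged 259 ± 37.1 under DRF and 228 ± 39.4 under NRF, Mgll 105 ± 14 and 119 ± 16.1, and Dgat2 257 ± 33.1 and 299 ± 81.3 (SD, n = 28). The single libraries of the regimens overlapped for all 3. Without the 2 libraries that went against their labels 5 genes were called (29.6% of all genes), with Abhd5 (log2 difference -0.05, adjusted p = 0.0495) and Gpam (-0.17, adjusted p = 0.0418) lower under DRF. Pnpla2 missed the threshold when ZT4, ZT8, ZT12 or ZT20 was left out (adjusted p = 0.0577 to 0.0897) and without all libraries of replicate 2, 3 or 4 (adjusted p = 0.0534 to 0.120), and Mgll without those of replicate 3 (adjusted p = 0.0509). Summed markers of some other cell types of the heart were also lower under DRF on average. They were 486 ± 59.9 against 548 ± 66.1 TPM for 5 endothelial genes and 631 ± 95.4 against 689 ± 93.1 TPM for 5 fibroblast genes. For 3 smooth muscle genes they were 242 ± 50.1 against 289 ± 62.3 TPM, and for 5 macrophage genes 274 ± 48.6 against 322 ± 47.3 TPM. Those of 6 cardiomyocyte genes were 21962 ± 1687 against 23700 ± 1820 TPM. Others were higher under DRF, at 2004 ± 1544 against 1235 ± 1257 TPM for 4 atrial genes. Erythroid (12661.5 ± 13992.8 against 11683.6 ± 11417.5 TPM), brown adipocyte (56.1 ± 27.1 against 48.2 ± 9.48 TPM) and adipocyte sums (93.8 ± 71.3 against 89.7 ± 62.2 TPM) were higher too. A sum weighs its most abundant genes most. Mitochondrially encoded genes held a share of 21.7% ± 1.47 in the DRF libraries and 20.4% ± 1.57 in the NRF ones (SD, n = 28). The part of these in the mean levels was not tested.

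Lipolysis and esterification genes each held both kinds of course. Counted by role, a difference in rhythm was found for 3 of 4 lipolysis genes and 2 of 3 synthesis genes, and each role held a gene or more that inverted and another that passed no test of rhythm in these fits. The mean log2 level of the lipolysis genes minus that of the synthesis genes differed between the regimens (DRF minus NRF) by -0.15 at ZT4 to 0.29 at ZT16, with an average of 0.053 over the 7 ZTs, and of 0.064 without the 2 libraries that went against their labels. Under NRF this difference ran from -0.02 at ZT4 to -0.52 at ZT12, and under DRF it lay between -0.15 and -0.29 (-0.11 at ZT4 without replicate 1). At ZT12 it was -0.25 ± 0.09 under DRF and -0.52 ± 0.08 under NRF, and at ZT16 -0.17 ± 0.10 and -0.45 ± 0.06 (SD, n = 4), without overlap of the libraries. At the other 5 ZTs the libraries overlapped. Dgat2 and Gpam, whose level under NRF was higher at ZT12, are both in the synthesis term.

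Ratios of single genes differed by more than this score. The log2 ratio of Pnpla2 to its inhibitor G0s2 was 1.33 ± 0.16 under DRF and -0.30 ± 0.44 under NRF at ZT20, and -0.24 ± 0.43 under DRF and 1.08 ± 0.05 under NRF at ZT12 (SD, n = 4). The libraries of the regimens did not overlap at ZT12, ZT20 or ZT24, and without the 2 libraries that went against their labels they did not at ZT4 either. The lowest mean ratio thus fell at lights off under DRF and 8 h after lights off under NRF. In the library labelled DRF ZT4 replicate 1 it was 1.42, against 0.18 to 0.44 in the other 3, and in that labelled NRF ZT8 replicate 1 it was -0.06, against 0.92 to 1.24. The log2 ratio of Pnpla2 to Dgat2 was higher under DRF at every ZT, by 0.15 at ZT8 to 0.58 at ZT20, without overlap at ZT0, ZT16, ZT20 and ZT24. These ratios are descriptions, and no test was made of them.

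**Figure D4:**
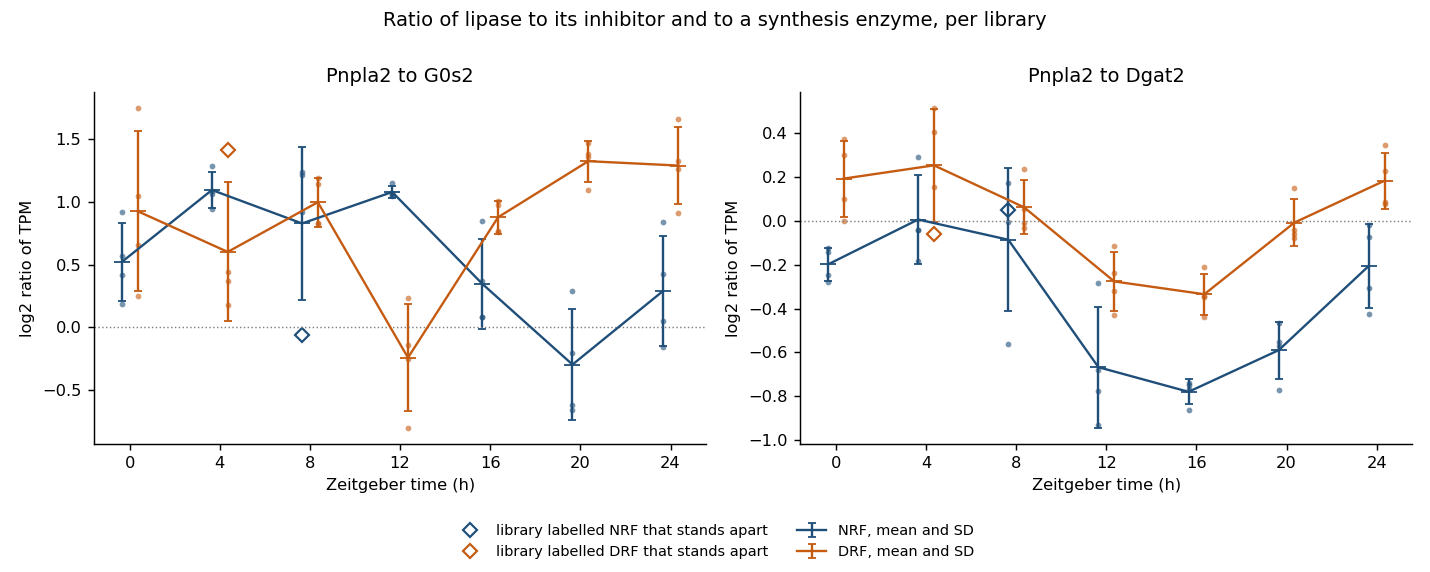
Log2 ratio of Pnpla2 to G0s2 (left) and of Pnpla2 to Dgat2 (right) in each library against zeitgeber time in hours, NRF in blue and DRF in orange, with group means and bars of 1 SD (n = 4) and open diamonds for the 2 libraries that went against their labels. The ratio to G0s2 is low at ZT12 under DRF and at ZT20 under NRF, and the mean ratio to Dgat2 is higher under DRF at all 7 ZTs.

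Other genes of the pathway were taken from a list of 37, of which 35 passed the filter (Mogat1 and Mogat2, monoacylglycerol acyltransferases, did not). Of these 19 (54.3%) were rhythmic under NRF, 14 (40%) under DRF and 10 (28.6%) under both, where 37.2%, 32.2% and 17.5% of all genes were. Of the 10, 6 were phase locked (peaks within 4 h), 3 intermediate and 1 inverted. A difference in rhythm was found for 13 of 35, or 37.1% against 27.5% of all genes (4 of 9 lipolysis genes, 1 of 10 coat genes and 8 of 16 synthesis genes). The mean level was higher under DRF for 1 (Pnpla3), 2.86% against 1.67% of all genes, and lower for 11, 31.4% against 24.3%.

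Among the lipolysis genes Pnpla7, a lysophospholipase, was phase inverted (adjusted p of the difference in rhythm 1.81e-08), with 4.38 ± 0.742 TPM at ZT24 and 7.83 ± 0.561 TPM at ZT12 under NRF against 6.69 ± 1.40 and 4.93 ± 0.620 TPM under DRF (SD, n = 4). Pnpla3, a lipase and acyltransferase of droplets, held 6.04 ± 2.80 TPM under DRF and 1.49 ± 0.698 TPM under NRF at ZT12, and its difference in rhythm had an adjusted p of 0.0108. At this ZT the adipocyte marker Plin1 held 5.20 ± 3.44 TPM under DRF and 2.27 ± 1.89 TPM under NRF, and the summed adipocyte markers 164 ± 66.1 and 130 ± 90.5 TPM (SD, n = 4), and these sums overlapped. Their part in the Pnpla3 difference was not tested. Ddhd2, a phospholipase that also acts on triglyceride, was rhythmic under NRF (adjusted p = 0.00586) and differed in rhythm (adjusted p = 0.0148). Of the coat genes Plin4 was called, with a peak at ZT15.1 under NRF and ZT19.9 under DRF, a delay of 4.82 h (SE 0.740).

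Of the synthesis genes the smallest adjusted p values were those of Acsl1, Lpin1 and Agpat2. Acsl1, the main acyl-CoA synthetase of heart, peaked at ZT8.06 under NRF and ZT1.73 under DRF, an advance of 6.33 h (SE 0.965). Lpin1, a phosphatidate phosphatase that makes diacylglycerol, peaked at ZT22.4 and ZT14.7, an advance of 7.67 h (SE 1.32). Agpat2, which adds the middle fatty acid, held 37.9 ± 3.21 TPM under NRF and 55.8 ± 1.88 TPM under DRF at ZT20 (SD, n = 4).

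Among themselves the 10 genes varied most alike for Lipe and Gpam (Pearson r = 0.82 over the 14 group means on the log2 scale), Pnpla2 and Gpam (r = 0.74) and Lipe and Plin5 (r = 0.73), and least alike for Lipe and Abhd5 (r = -0.63). Without the 2 libraries that went against their labels these 4 values were 0.85, 0.66, 0.68 and -0.55. G0s2 had r = -0.55 with Lipe and r = -0.21 with Pnpla2 (-0.61 and -0.19 without them). Dgat1 and Dgat2 had r = 0.02. The points share libraries, sequencing depth and scaling, so these values are descriptions. Over all genes tested and with all libraries, the course of Lipe was most like that of Cpt1a (r = 0.94), the carnitine palmitoyltransferase that admits long-chain fatty acids to mitochondria, followed by Dhx40 and Zscan12 (r = 0.93 each). Pnpla2 was most like Ephx2 (r = 0.97), Slc27a1 (r = 0.92), a fatty acid transporter, and E130119H09Rik (r = 0.92), and Plin5 was most like Mlycd (r = 0.94), malonyl-CoA decarboxylase, Pfkp (r = 0.93) and Adck2 (r = 0.91). Gpam was most like Rlim, Stk11ip (r = 0.94 each) and Tfcp2 (r = 0.93), Dgat2 like Smarca2 (r = 0.95), Chp1 (r = 0.94) and Slco5a1 (r = 0.93), G0s2 like Sertad4 (r = 0.85), Gzmm and Zcchc10 (r = 0.84 each), and Abhd5 like Ryk (r = 0.90), Rabl6 and Cry1 (r = 0.89 each).

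Several of these genes are also made by adipocytes. The deviations of single libraries from their group means correlated with those of the summed adipocyte markers at r = 0.64 for Dgat1, 0.41 for Lipe, 0.35 for Plin2, 0.33 for Plin5 and 0.24 for Pnpla2 over the 56 libraries. With the adipocyte marker level as a covariate in limma the difference in rhythm was found for 7 genes as before (28.1% of all genes), and the rhythm under DRF for 6 (31.3% of all genes; Mgll, adjusted p = 0.0467, and Dgat1, adjusted p = 0.0344, were added). The summed adipocyte markers averaged 77.9 TPM under DRF and 75.2 TPM under NRF at ZT0, 47.0 and 68.7 TPM at ZT20, and 105 and 61.8 TPM at ZT24, the 3 times at which Lipe and Pnpla2 were higher under DRF. With the adipocyte covariate these calls of Lipe (adjusted p = 0.0113, 0.00331 and 0.00222) and Pnpla2 (adjusted p = 0.00103, 0.00875 and 0.0113) were still made. Summed atrial markers averaged 3773 TPM under DRF and 2559 TPM under NRF at ZT0, 981 and 1219 TPM at ZT20, and 1796 and 531 TPM at ZT24. With the atrial level as a covariate, added after seeing the data, the counts of genes with a rhythm under NRF, under DRF and with a difference in rhythm were 7, 4 and 7 as before (38.3%, 31.8% and 28.1% of all genes). A summed marker is an approximate measure of a cell type. The part of either cell type in the calls or in the ratios was not tested.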

How the data were processed

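PolyA RNA of 56 heart samples was sequenced as paired ends. Reads were mapped with HISAT2 2.0.5 and counted with featureCounts 1.5.0-p3 on mm10, per the submitters' processing notes. Whether counting used strand is not given in the sources used here. The deposited values, of the kind other than a usual expression unit, equal a constant of the library times log2(1 + scaled reads) divided by gene length, which was found from the values themselves. Reads were recovered by inverting this, and 99.9996% of 1192402 values below 30000 reads came out whole within 0.1 reads. Lengths came from the annotation for 21952 genes and from the steps of the values for 831, and 3 genes of 22864 (Atp5a1, Fth1 and Hsp90ab1) were left out. The design had been written for TPM, and TPM were recomputed from the reads.

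Genes of at least 1 TPM on average (13893) were fitted as log2(TPM + 1), so fold changes of low genes are understated, with limma 3.58.1 in R 4.3.3. Rhythm was an F test of a cosine and a sine term of 24 h for each regimen and for their difference, and group contrasts shared the spread of all 14 groups. P-values were Benjamini-Hochberg adjusted over all genes tested in each comparison and called under 0.05. Folds in the text are ratios of group means in TPM. Among genes rhythmic under both regimens, peaks within 4 h were called locked and those at least 8 h apart inverted. The labels do not say that each library is a separate animal, so p-values measure the spread between these samples. The fits were tested on simulated data with known changes. Python 3.11.15 was used for recovery and figures.

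The 10 genes and all lists were chosen with earlier results of these data known. All 10 are named, with, for each role of the other pathway genes, up to 3 called genes of smallest adjusted p for the difference in rhythm, and for each of the 10 called for that difference the 3 genes most like it. Alternatives were another pseudocount (0.1), no filter, median-of-ratios scaling, a robust variance prior, a replicate block, an adipocyte covariate, and leaving out libraries, replicate numbers and time points. An atrial covariate and the omission of the 2 libraries that went against their labels were added after the data were seen.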

Additional observations from a re-analysis of the deposited data

Results flagged for a closer look

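In 6 of 140 groups of 4 libraries a single library lay far from the other 3 by Dixon's test, where chance gives about 7 (1 in 20 groups). For Gpam and G0s2 it was the library labelled DRF ZT4 replicate 1, with 150 TPM of Gpam (67.2 to 76.0 TPM in the others) and 102 TPM of G0s2 (213 to 229 TPM). The others were Mgll in NRF ZT16 replicate 3 (132 TPM, others 115 to 117 TPM), Plin2 in DRF ZT16 replicate 2 (42.0 TPM, others 33.7 to 34.5 TPM), Plin5 in NRF ZT8 replicate 3 (106 TPM, others 153 to 163 TPM) and Dgat1 in NRF ZT12 replicate 4 (9.63 TPM, others 13.5 to 13.8 TPM).

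The effect of time differed between the regimens in limma for 7 genes, with adjusted p values of 1.96e-08 for Gpam, 2.85e-08 for Lipe, 8.46e-07 for Dgat2, 2.66e-06 for Pnpla2, 0.000586 for Plin5, 0.00405 for G0s2 and 0.0195 for Abhd5.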

How the results depend on the processing

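Counts of called genes stayed within 1.5 times of those reported, with the following exceptions, whose cause was not tested. After median-of-ratios scaling, which moved the median difference in mean level of all genes from -0.05 to 0.00, 8 genes were rhythmic under DRF (4 before). Without the 2 libraries that went against their labels, an alternative chosen after seeing the data, 5 genes differed in mean level (3 before). Leaving out all libraries of 1 replicate number gave 5 to 6 genes for the rhythm under NRF, 4 to 5 under DRF and 5 to 6 for their difference. Of all genes 20.2% to 37.8%, 16.5% to 25.7% and 13.3% to 23.6% were called. For the mean level it gave 1 to 4 genes, against 8.48% to 26.7% of all genes. Of pairs it gave 9 to 16 of 70 at the same ZT (14 with all) and 5 to 7 of 60 at the same time from food (9 with all). The share of all genes is not given for these pairs, and fewer samples enter these fits. Leaving out a single library gave 11 (without DRF ZT24 replicate 1) to 19 (without DRF ZT4 replicate 1) pairs at the same ZT and 6 to 10 pairs at the same time from food (6 without DRF ZT8 replicate 2, NRF ZT20 replicate 2 or NRF ZT20 replicate 3). No value reversed its direction in a call. Of 44 called results, 32 kept their call in all 56 fits that left out a library.

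With replicate number as a block 7, 4 and 7 genes were called for rhythm under NRF, under DRF and their difference. For the mean level 3 were called. Of all genes 36.5%, 32%, 27.2% and 25.6% were called. Pairs called were 14 at the same ZT, 9 at the same time from food and 0 for ZT24 against ZT0, for which the share of all genes is not given. Same-numbered libraries did not deviate together (median r of -0.01 to 0.04 over 91 pairs per number), so the numbers do not pair the samples. The 10 genes had 462 or more reads per library.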
